A study of Mus musculus with 17 samples.

Results

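Complex I of the respiratory chain, also called NADH:ubiquinone oxidoreductase, was followed through the genes that encode its subunits in the nucleus, in periprostatic fat, the fat beside the prostate, of 17 male mice of the strain C57BL/6J. Members were all genes with a symbol of Nduf followed by a, b, c, s or v and a digit, which leaves out the assembly factors named Ndufaf and the acyl carrier Ndufab1. The array measured 33 such genes among 22180 genes in all. RefSeq lists 40 protein-coding genes of this form, and the other 7 were not analysed here. By present assignment 31 of the 33 encode parts of complex I, and Ndufa4 and Ndufa4l2 are counted outside it.

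The calorie-restricted group (HFD+CR, 5 mice) ate a high-fat diet with 60 kcal% fat from 6 weeks of age for 12 weeks and then received, for 7 more weeks, 70% of the amount that the unrestricted high-fat mice ate, a restriction of 30%. The high-fat group (HFD, 6 mice) had the same diet without restriction throughout, and the low-fat group (LFD, 6 mice) had unrestricted food with 10 kcal% fat. No mouse carried an engineered allele per the labels, every sample was periprostatic fat of a separate animal at 25 weeks of age, and no restricted group on the low-fat diet is among the samples. Each RNA was hybridised to its own Affymetrix Mouse Gene 2.0 ST array, and the deposited values are log2 signals after RMA, the usual background correction, normalisation and probe summary for such arrays. On this scale a difference of 1 is a doubling of signal, and the level of a probe set cannot be set against that of another probe set.

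Complex I takes electrons from NADH and passes them to ubiquinone while it pumps protons across the inner mitochondrial membrane. It is shaped like an L. The arm in the matrix holds the N module, where NADH is oxidised, and the Q module, where ubiquinone is reduced, and the membrane arm holds the proton pumps. The core subunits carry the flavin, the iron-sulphur clusters and the pumping channels, and the many accessory subunits surround and stabilise them. The pumping channels themselves are encoded by mitochondrial DNA and the members studied here by the nucleus. In white fat cells mitochondria supply ATP and building blocks for making and breaking down fat, and thermogenic (brown or beige) fat cells are much richer in them.

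To show the sequence from which the main members are transcribed, the stretch from 250 bases before to 50 bases after the annotated start is given 5′ to 3′ for 5 of them (RefSeq, GRCm38.p6). Ndufv1, Ndufa10 and Ndufa9 are members with large differences between diets, Ndufa5 is lower on the high-fat diet and carries a motif of NRF1, and Ndufb3 is the member that moved the other way. Capitals mark the only matches found among the 4 motifs described next, an NRF1 motif in Ndufa5 and, in this order, an NRF1 and a YY1 motif in Ndufa9. RefSeq gives Ndufa5 a further window that overlaps this one and holds the same match.
Ndufv1 (chr19:4012706-4013005, minus strand): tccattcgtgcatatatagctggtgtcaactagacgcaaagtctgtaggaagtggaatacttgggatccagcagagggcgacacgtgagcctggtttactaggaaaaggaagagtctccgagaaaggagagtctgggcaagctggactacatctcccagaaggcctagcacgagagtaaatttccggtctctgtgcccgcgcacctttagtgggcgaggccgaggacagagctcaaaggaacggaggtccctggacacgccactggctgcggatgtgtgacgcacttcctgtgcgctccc
Ndufa10 (chr1:92473709-92474008, minus strand): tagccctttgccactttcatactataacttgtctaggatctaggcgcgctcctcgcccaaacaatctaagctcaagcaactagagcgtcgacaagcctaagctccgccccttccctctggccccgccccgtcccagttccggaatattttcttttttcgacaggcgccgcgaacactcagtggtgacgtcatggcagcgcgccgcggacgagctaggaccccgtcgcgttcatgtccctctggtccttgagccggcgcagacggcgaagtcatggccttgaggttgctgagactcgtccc
Ndufa9 (chr6:126849095-126849394, minus strand): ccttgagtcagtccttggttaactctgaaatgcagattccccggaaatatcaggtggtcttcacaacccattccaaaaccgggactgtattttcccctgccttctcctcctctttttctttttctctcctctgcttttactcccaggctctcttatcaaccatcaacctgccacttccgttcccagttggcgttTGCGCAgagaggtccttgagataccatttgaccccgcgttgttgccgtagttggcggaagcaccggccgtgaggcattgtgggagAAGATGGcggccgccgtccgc
Ndufa5 (chr6:24527641-24527940, minus strand): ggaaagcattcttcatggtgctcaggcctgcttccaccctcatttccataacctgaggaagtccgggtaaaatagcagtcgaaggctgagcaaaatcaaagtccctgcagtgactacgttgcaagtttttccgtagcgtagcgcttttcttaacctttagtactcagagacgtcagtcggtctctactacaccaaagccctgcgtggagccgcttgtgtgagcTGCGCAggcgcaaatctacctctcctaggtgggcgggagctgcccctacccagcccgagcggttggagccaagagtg
Ndufb3 (chr1:58586147-58586446, plus strand): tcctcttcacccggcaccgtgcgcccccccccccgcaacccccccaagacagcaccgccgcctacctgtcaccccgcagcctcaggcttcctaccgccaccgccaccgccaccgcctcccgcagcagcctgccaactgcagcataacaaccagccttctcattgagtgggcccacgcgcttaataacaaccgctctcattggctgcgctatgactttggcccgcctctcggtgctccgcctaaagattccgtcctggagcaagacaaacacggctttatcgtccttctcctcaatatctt

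The 4 motifs stand for factors known to act at genes of the respiratory chain, and both the factors and the letters were chosen with the expression values known. Some of the letters are shorter than those first searched, and the shares below depend on their length. They were searched on both strands with no mismatch, as TGCGCA for NRF1, AAGGTCA for the oestrogen-related receptors (ERR), CCGGAAG for GABP and AAGATGG for YY1. Of the 33 members 29 had a window, with 31 windows in all, and Ndufs1, Ndufa2, Ndufb9 and Ndufa4l2 had none. The NRF1 motif stood in 29.0% of the members' windows, those of Ndufa5, Ndufa6, Ndufa8, Ndufa9, Ndufb6, Ndufb8, Ndufb10 and Ndufs5, and in 7.76% of all 32851 windows. The YY1 motif stood in 19.4% of the members' windows (Ndufa3, Ndufa9, Ndufb8, Ndufc1, Ndufs4 and Ndufs7) and in 6.34% of all windows. GABP's motif was in 12.9% of the members' windows (Ndufb6, Ndufb7, Ndufs3 and Ndufs8), against 8.86% of all. The ERR motif was in 3.23% (Ndufs5), against 4.72% of all. No member's windows held both the GABP and the YY1 motif, whose letters can overlap.

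Every member had a mean signal above the highest array median of 7.15, with Ndufs5 (7.20), Ndufb11 (7.40) and Ndufa4l2 (7.48) closest to it. Array medians ran from 7.03 to 7.15. The labelled tissue was checked against 10 adipocyte markers, all of which were measured, with mean signals of 10.7 or more. Other tissues were also present in single arrays: the mean of 15 skeletal muscle markers stood 1.98 log2 units above the median array in HFD+CR mouse 2 and 3.04 and 1.94 above it in LFD mice 2 and 3, and the mean of 9 prostate and accessory gland markers stood 1.39 above it in HFD mouse 3 and 2.68 above it in LFD mouse 3. The muscle mean also stood 0.96 above it in HFD mouse 6 and 0.74 in LFD mouse 5. Neither is among the 4 arrays left out below for muscle or gland markers. The mean of 9 thermogenic fat markers stood 2.30 and 1.83 log2 units above the median array in LFD mice 3 and 6. The mean of 9 male germ cell markers was 1.91 above it in HFD+CR mouse 1, an array that is left out below only on its own. Mean signals lay below the lowest array median for 6 of the 9 gland, 6 of the 9 germ cell and 4 of the 15 muscle markers. Counts of called members are given below with and without the arrays high for muscle, gland or thermogenic markers, and calls that ended without them are named.

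Complex I subunit genes were lower in HFD fat than in LFD fat across both arms of the enzyme. By the limma fit over all 17 arrays, with Benjamini-Hochberg adjustment over all 22180 genes and a call at an adjusted p under 0.05, 16 of the 33 members fell in HFD fat and 1, Ndufb3, rose. Over all genes 11.3% were called lower and 16.5% higher, and among the genes above the median level these shares were 16.7% and 27.4%. The median difference of HFD minus LFD was -0.18 over the members and -0.0032 over all genes, and 28 of the 33 members lay below 0. In 7 members every HFD mouse lay below every LFD mouse, namely Ndufv1, Ndufa10, Ndufa9, Ndufa5, Ndufb10, Ndufc1 and Ndufa3, a pattern found in 5.21% of all genes. RNA of a whole tissue cannot tell fewer cells of a type from less RNA per cell. When the arrays were centred on their medians or quantile-normalised again, 17 and 21 members were lower and none was higher. Both rescalings also moved the higher share of all calls to 47.9%, against 59.4% with the deposited values.

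**Figure D1:**
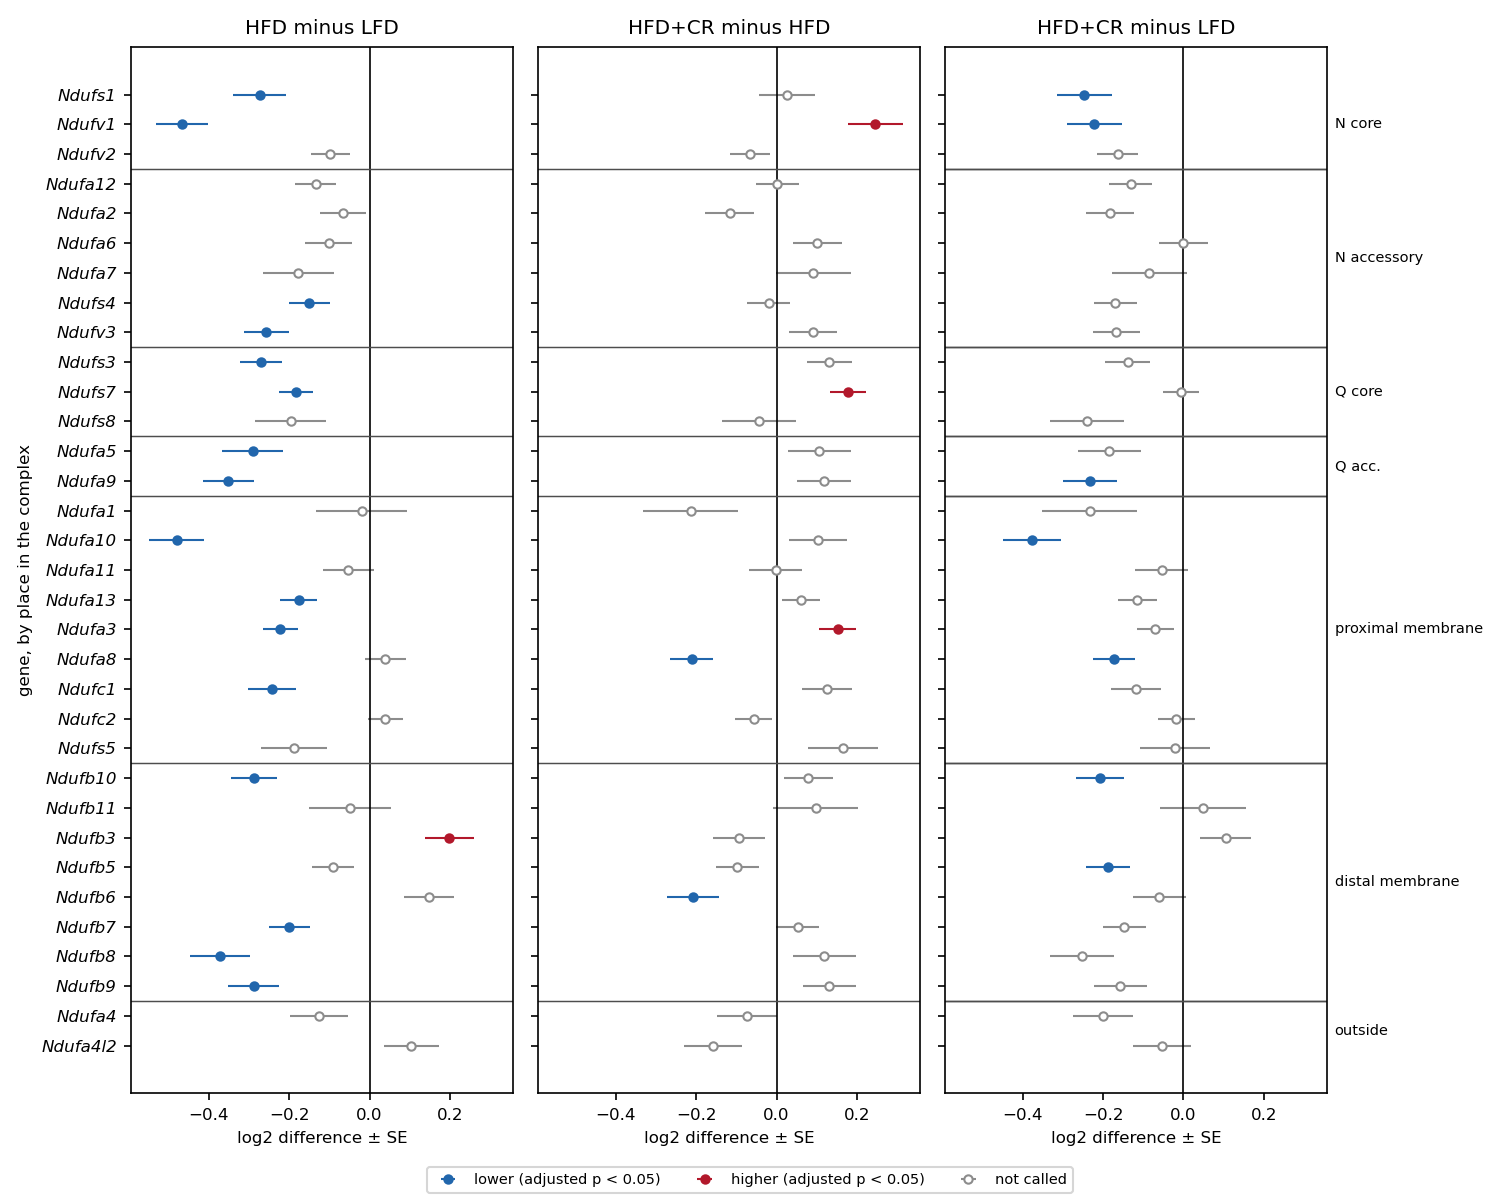
Differences in log2 signal with their standard errors for the 33 members, ordered by place in the complex, in HFD minus LFD, HFD+CR minus HFD and HFD+CR minus LFD. Blue points are called lower, red points higher and open grey points not called. In HFD minus LFD 16 points are blue and 1 is red, in HFD+CR minus HFD 2 are blue and 3 red, and in HFD+CR minus LFD 7 are blue.

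In the N module, Ndufv1 binds the flavin that takes electrons from NADH. Its log2 signal was 11.03, 11.28, 11.28, 11.15 and 11.32 in the HFD+CR mice, 10.88 to 11.07 with a median of 10.97 in the HFD mice, and 11.28 to 11.62 with a median of 11.39 in the LFD mice. The HFD mice lay below all LFD mice, and the HFD+CR mice lay between the means of the other groups. Ndufv1 fell by 0.47 ± 0.06 (SE) on the log2 scale in HFD fat relative to LFD fat, a signal change of -27.7% (adjusted p = 2.35e-05).

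Ndufs1, the largest core subunit and a carrier of iron-sulphur clusters, was at 9.70, 9.96, 9.81, 9.99 and 10.01 in the HFD+CR mice. In HFD mice it ran from 9.77 to 10.06 with a median of 9.83, and in LFD mice from 9.95 to 10.23 with a median of 10.17. The groups overlapped through HFD mouse 4, at 10.06, and LFD mouse 1, at 9.95. The difference of HFD minus LFD was -0.27 ± 0.07 (adjusted p = 0.00409). Ndufv2, which holds an iron-sulphur cluster beside Ndufv1, was at 11.90, 11.96, 11.77, 12.02 and 12.01 in HFD+CR mice, 11.93 to 12.07 (median 12.00) in HFD mice and 12.00 to 12.19 (median 12.10) in LFD mice. It was not called, with a difference of -0.10 (95% confidence interval -0.20 to 0.00, adjusted p = 0.155), and its groups overlapped.

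Of the 6 measured accessory subunits of the N module, 2 fell in HFD fat. Ndufv3 differed by -0.26 ± 0.06 (adjusted p = 0.00193). Ndufs4, which holds the N module in place and whose loss in mice causes a severe brain disease, differed by -0.15 ± 0.05 (adjusted p = 0.0351), and that call ended in 16 of 31 alternative settings, among them leaving out any 1 of HFD mice 2 to 6 (adjusted p = 0.0527 to 0.075). Ndufa2, Ndufa6, Ndufa7 and Ndufa12 were not called, with differences between -0.18 and -0.07.

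In the Q module, Ndufs3 is a core subunit at the base of the N module. It was at 8.70, 8.78, 8.79, 8.77 and 8.75 in HFD+CR mice, 8.54 to 8.81 (median 8.61) in HFD mice and 8.80 to 9.02 (median 8.87) in LFD mice. The groups on the 2 diets overlapped only through HFD mouse 4, at 8.81. The difference of HFD minus LFD was -0.27 ± 0.05 (adjusted p = 0.000728).

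Ndufs7 carries the iron-sulphur cluster that hands electrons to ubiquinone. Its signal was 12.96, 13.05, 13.03, 13.02 and 13.11 in HFD+CR mice, 12.80 to 12.94 (median 12.84) in HFD mice and 12.92 to 13.12 (median 13.06) in LFD mice. The HFD mice were the low group, with a difference of -0.18 ± 0.04 from LFD mice (adjusted p = 0.00293), and only HFD mouse 5 and LFD mouse 2 overlapped. Ndufs8, a further iron-sulphur subunit, was at 10.33, 10.48, 10.41, 10.42 and 10.55 in HFD+CR mice, 10.38 to 10.72 (median 10.44) in HFD mice and 10.28 to 10.92 (median 10.69) in LFD mice. Its lowest value was that of LFD mouse 2 and the groups overlapped widely, so that the difference of -0.20 ± 0.09 was not called (adjusted p = 0.114).

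Both measured accessory subunits of the Q module fell. Ndufa9, which sits where the arms meet and is related to short-chain dehydrogenases, was at 11.12, 10.94, 11.21, 10.97 and 11.16 in HFD+CR mice, 10.88 to 11.06 (median 10.95) in HFD mice and 11.15 to 11.51 (median 11.31) in LFD mice. No HFD mouse reached the LFD range, and the difference was -0.35 ± 0.06 (-21.6%, adjusted p = 0.000362). Ndufa5, whose NRF1 motif is shown above, differed by -0.29 ± 0.08 (adjusted p = 0.00667) with no overlap of the groups, at 7.75 to 8.04 in HFD mice and 8.06 to 8.46 in LFD mice.

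In the membrane arm, Ndufa10 is an accessory subunit on the matrix side, related to deoxyribonucleoside kinases, and it had the largest difference of all members between HFD and LFD. Its log2 signal was 11.42, 11.57, 11.56, 11.60 and 11.67 in HFD+CR mice, 11.37 to 11.55 (median 11.44) in HFD mice and 11.70 to 12.17 (median 11.93) in LFD mice. Every mouse of both high-fat groups lay below every LFD mouse. Ndufa10 fell by 0.48 ± 0.07 on the log2 scale in HFD fat, a signal change of -28.3% (adjusted p = 3.41e-05).

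Ndufb8, an accessory subunit of the distal membrane arm, was at 8.54, 8.63, 8.80, 8.62 and 8.72 in HFD+CR mice, 8.41 to 8.80 (median 8.51) in HFD mice and 8.71 to 9.13 (median 8.88) in LFD mice. Only HFD mouse 1, at 8.80, reached into the LFD range, and the difference was -0.37 ± 0.07 (-22.7%, adjusted p = 0.000948). Further members of the proximal membrane arm fell, Ndufa3 (-0.22 ± 0.04), Ndufc1 (-0.24 ± 0.06) and Ndufa13 (-0.18 ± 0.05), as did Ndufb7 (-0.20 ± 0.05), Ndufb9 (-0.29 ± 0.06) and Ndufb10 (-0.29 ± 0.06) of the distal arm, with adjusted p from 0.000744 to 0.00686. The call of Ndufa13 ended without the 4 arrays high for muscle or gland markers (adjusted p = 0.0512), and that of Ndufc1 ended with the thermogenic markers' mean as a covariate. By arm, 8 of 14 measured members of the matrix arm fell with a median difference of -0.19, and 8 of 17 of the membrane arm fell with a median of -0.18.

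Ndufb3, a small accessory subunit of the distal membrane arm, moved the other way. It was at 10.20, 10.13, 9.98, 10.04 and 10.11 in HFD+CR mice, 10.05 to 10.31 (median 10.19) in HFD mice and 9.79 to 10.09 (median 10.00) in LFD mice. The groups overlapped, and LFD mouse 5, at 9.79, lay below the others of its group. The difference was 0.20 ± 0.06 (14.7%, adjusted p = 0.0202), and its call ended without HFD mouse 2, without LFD mouse 5, and under both rescalings of the arrays.

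Neither gene outside complex I was called. Ndufa4, now counted as a subunit of complex IV, was at 10.80, 11.03, 10.91, 11.06 and 11.16 in HFD+CR mice, 10.96 to 11.31 (median 11.03) in HFD mice and 11.05 to 11.37 (median 11.16) in LFD mice. The HFD minus LFD difference was -0.13 (95% confidence interval -0.28 to 0.02, adjusted p = 0.219). Ndufa4l2, a paralogue known to be induced when oxygen is short, was at 7.28, 7.34, 7.46, 7.49 and 7.48 in HFD+CR mice, 7.38 to 7.72 (median 7.56) in HFD mice and 7.21 to 7.62 (median 7.51) in LFD mice. Its difference was 0.10 (95% confidence interval -0.04 to 0.25, adjusted p = 0.305), and for both genes all 3 groups overlapped.

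**Figure D2:**
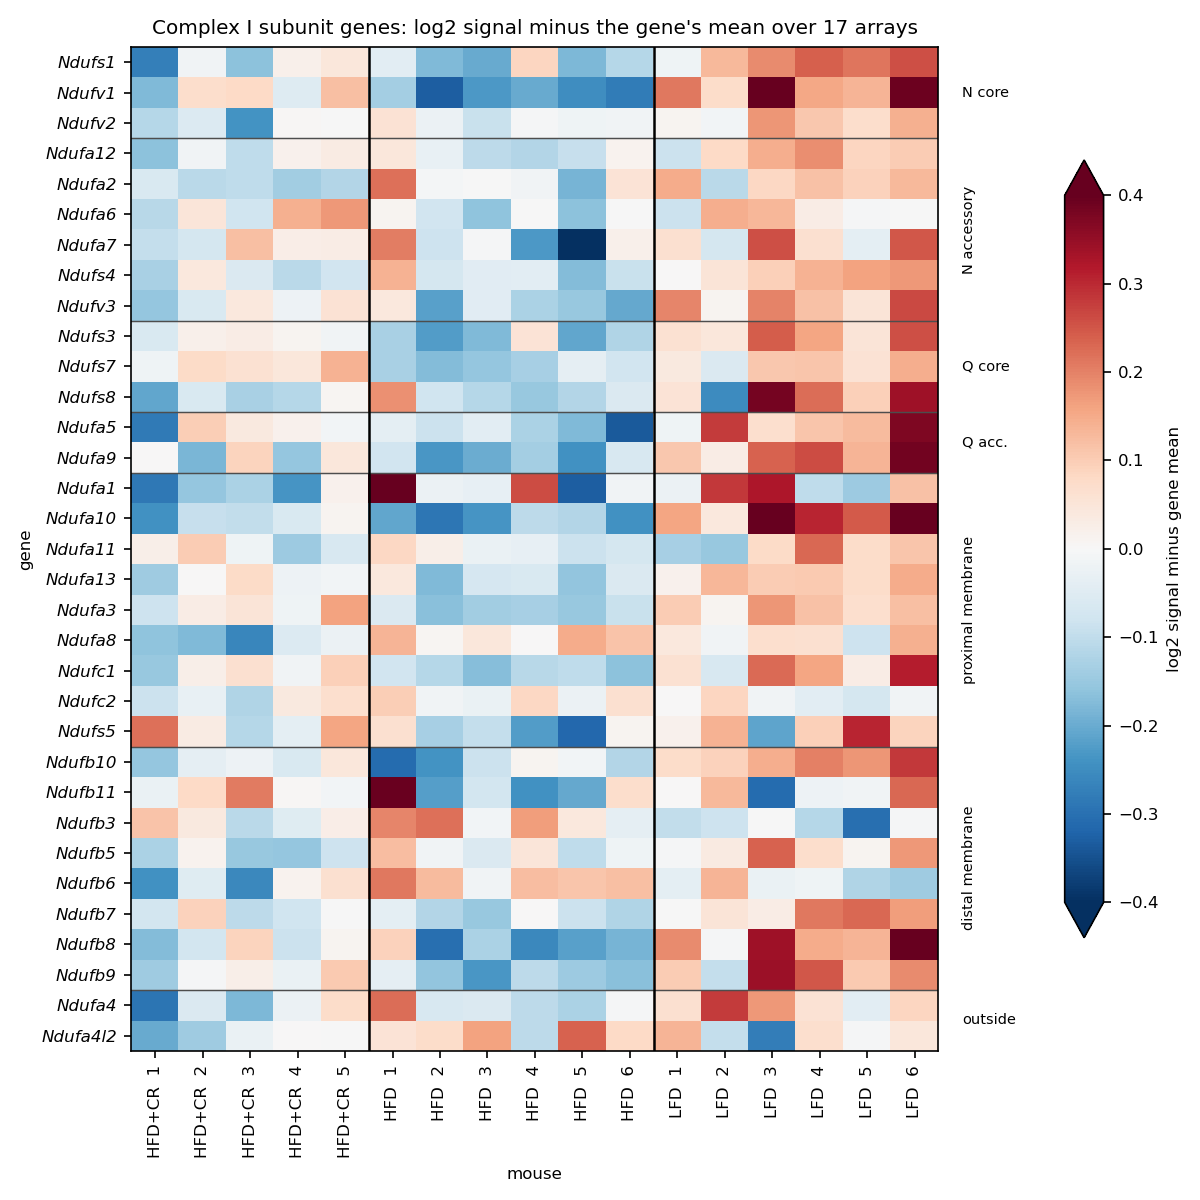
Log2 signal of each member in each mouse minus that member's mean over the 17 arrays, with members in rows by place in the complex and mice in columns by group (HFD+CR, HFD, LFD). Red is above and blue below the member's mean, and the colours are capped at 0.4. LFD mouse 6 is the highest LFD mouse in 13 of the 33 members and HFD mouse 1 the highest HFD mouse in 23.

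The mice of a group did not lie at the same level for all members together. The mean deviation over the 33 members was -0.12, -0.02, -0.05, -0.04 and 0.03 log2 units in the HFD+CR mice, -0.12 to 0.06 (median -0.08) in the HFD mice and 0.04 to 0.19 (median 0.09) in the LFD mice. HFD mouse 1 was the highest of its group in 23 members, and without it 19 members fell in HFD fat. HFD+CR mouse 1, the array high for germ cell markers, was the lowest of its group in 22 members. LFD mice 3 and 6, the pair with high thermogenic markers, were the highest of their group in 10 and 13 members, and without both of them 16 members fell in HFD fat, with a median difference of -0.13, and Ndufs4 lost its call. Without the 4 arrays high for muscle or gland markers, HFD+CR mouse 2, HFD mouse 3 and LFD mice 2 and 3, 15 members fell and 2 rose, and Ndufs4 and Ndufa13 lost their calls. The part that these tissues play in the result was not tested beyond this.

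Adipocyte markers moved with the same comparison. Of 10 such markers, 8 were lower in HFD than in LFD fat, 7 were higher in HFD+CR than in HFD fat and 1 was lower in HFD+CR than in LFD fat. Relative to the median array their mean ran from -0.11 to 0.10 in HFD+CR mice, from -0.35 to -0.19 in HFD mice and from 0.00 to 0.14 in LFD mice, so that the HFD mice overlapped neither other group. The mean of 10 macrophage markers ran from -0.12 to 0.24 in HFD+CR mice, from 0.47 to 0.87 in HFD mice and from -0.58 to -0.11 in LFD mice, with 8 of the 10 called higher in HFD than in LFD fat and 8 lower in HFD+CR than in HFD fat. The part of macrophages in the complex I result was not tested. With the adipocyte mean as a covariate no member was called in HFD minus LFD by limma, none had an unadjusted p under 0.05, and 4 of all 22180 genes were called. The standard error of Ndufa10 was 0.17 in that fit, and its difference was -0.15. The mean level of adipocyte markers and diet therefore cannot be told apart in HFD minus LFD. The single markers differed by -1.13 to -0.06 in that comparison, and the share of adipocytes in the tissue was not measured.

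**Figure D3:**
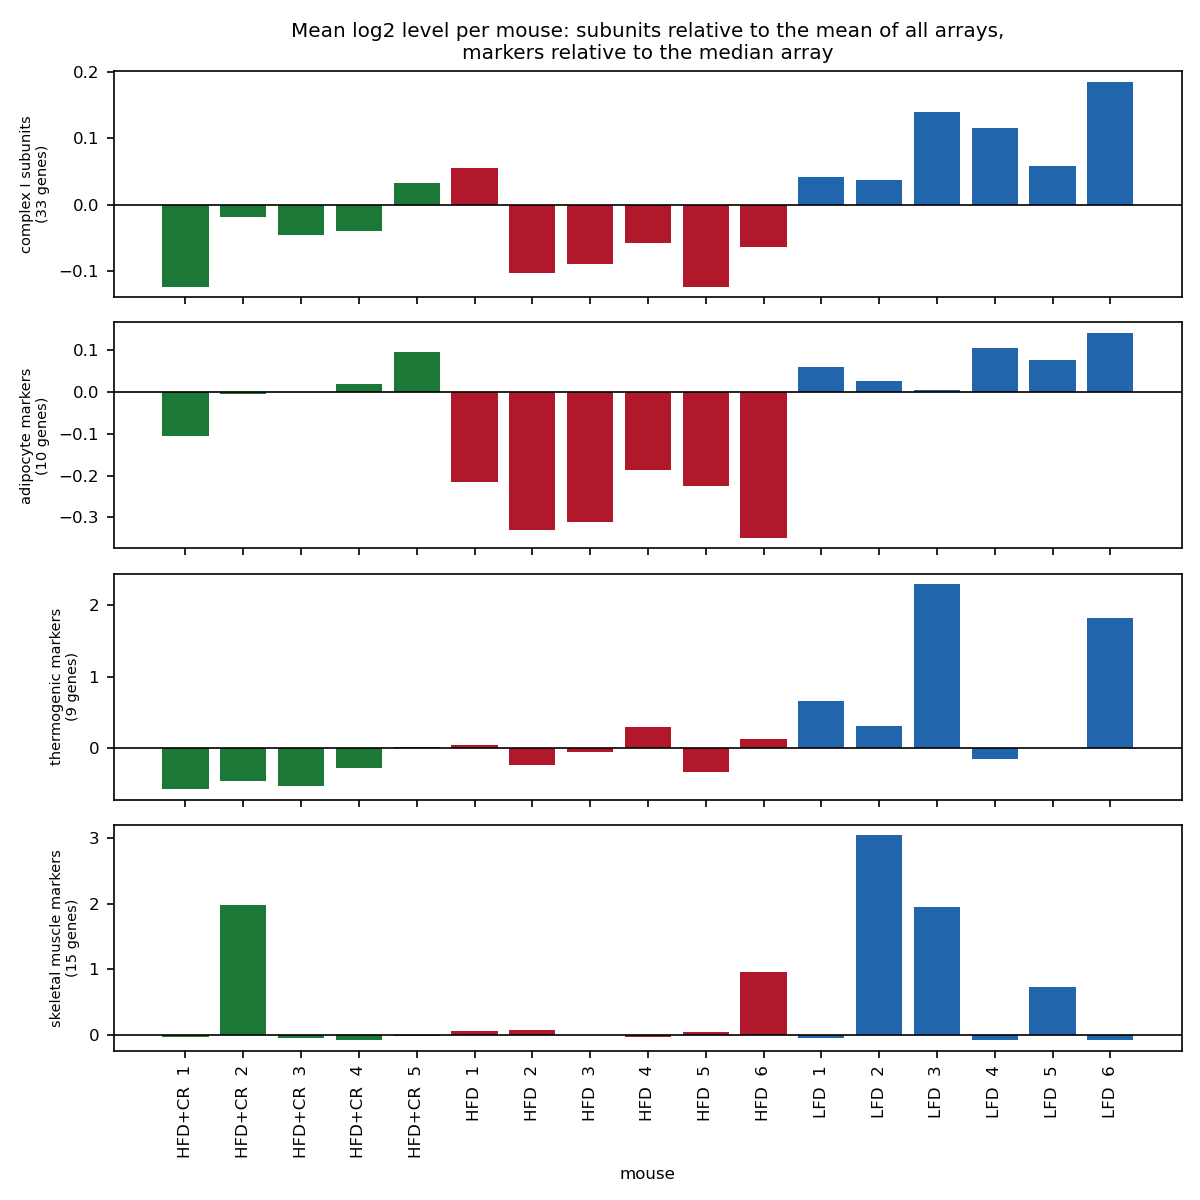
Mean log2 level in each mouse of the 33 complex I members (relative to the mean of all arrays) and of the adipocyte, thermogenic fat and skeletal muscle markers (relative to the median array), with bars for HFD+CR (green), HFD (red) and LFD (blue) mice. The adipocyte bars of the HFD mice lie between -0.35 and -0.19, below every other mouse, and the thermogenic bars of LFD mice 3 and 6 reach 2.30 and 1.83.

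Between HFD+CR and HFD fat the share of complex I subunit genes called was near that of all genes. Of the 33 members, 3 (9.09%) rose in HFD+CR relative to HFD fat and 2 (6.06%) fell, while 7.69% of all genes were called higher and 11.3% lower. Without the 4 arrays high for muscle or gland markers 2 rose and 2 fell, and without LFD mice 3 and 6 the counts were 3 and 2. The median difference of HFD+CR minus HFD was 0.06 over the members and -0.0024 over all genes, and 20 of the 33 members lay above 0. Every HFD+CR mouse lay above every HFD mouse in 1 member, Ndufs7, and below in 1, Ndufa8, against 5.42% and 8.26% of all genes. With quantile normalisation applied again 4 members rose and 1 fell, with median centring 3 rose and 1 fell, and the higher share of all calls was 51.4% after that quantile step, against 40.5% with the deposited values. This comparison and HFD minus LFD share the HFD mice, so opposite signs in them are no separate evidence.

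All 3 members that rose are ones that were lower in HFD than in LFD fat. Ndufv1, with the values given above, was 0.25 ± 0.07 higher in HFD+CR than in HFD fat (18.6%, adjusted p = 0.0154). Its groups overlapped through HFD+CR mouse 1, and the call ended without HFD+CR mouse 5, when 1 member in all rose. Ndufs7 was 0.18 ± 0.04 higher (13.1%, adjusted p = 0.00827), with 12.96 to 13.11 in HFD+CR mice and 12.80 to 12.94 in HFD mice. Ndufa3, an accessory subunit of the proximal membrane arm, was at 12.52, 12.64, 12.66, 12.59 and 12.77 in HFD+CR mice, 12.44 to 12.55 (median 12.47) in HFD mice and 12.62 to 12.78 (median 12.71) in LFD mice. Only HFD+CR mouse 1 reached into the HFD range, and the difference from HFD was 0.15 ± 0.05 (adjusted p = 0.0257). This call ended in 6 of 31 alternative settings, among them leaving out HFD+CR mouse 3, HFD+CR mouse 5 or HFD mouse 2 (adjusted p = 0.0592, 0.0871 and 0.0593) and leaving out the 4 arrays (adjusted p = 0.0714).

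The 2 members that fell had not been called in HFD minus LFD. Ndufa8, a cysteine-rich accessory subunit on the side of the intermembrane space, was at 10.27, 10.25, 10.17, 10.38 and 10.41 in HFD+CR mice, 10.43 to 10.58 (median 10.51) in HFD mice and 10.35 to 10.57 (median 10.48) in LFD mice. The HFD+CR mice were below all HFD mice, with a difference of -0.21 ± 0.05 (-13.6%, adjusted p = 0.00761). A second Ndufa8 probe set gave -0.17 with adjusted p = 0.0653, in a fit on all probe sets in which the first had adjusted p = 0.00796. Ndufb6, of the distal membrane arm, was at 10.44, 10.63, 10.42, 10.69 and 10.75 in HFD+CR mice, 10.67 to 10.89 (median 10.80) in HFD mice and 10.54 to 10.82 (median 10.65) in LFD mice. The groups overlapped, and the difference of -0.21 ± 0.07 (-13.4%, adjusted p = 0.0322) lost its call without any 1 of HFD+CR mice 1 and 3 or HFD mice 1, 2, 4 and 6, and under both rescalings.

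Ndufa1, a small subunit encoded on the X chromosome, had a difference of -0.21 too but a larger error. It was at 8.15, 8.28, 8.31, 8.20 and 8.45 in HFD+CR mice, 8.10 to 8.91 (median 8.41) in HFD mice and 8.29 to 8.76 (median 8.48) in LFD mice. The HFD mice spanned the whole range of the others, and the standard error of 0.12 left the difference uncalled (adjusted p = 0.253). Of the 4 members with the largest falls in HFD relative to LFD fat, Ndufv1 rose, as given above. HFD+CR minus HFD was 0.10 for Ndufa10 (95% confidence interval -0.05 to 0.26, adjusted p = 0.386), 0.12 for Ndufb8 (-0.05 to 0.28, adjusted p = 0.352) and 0.12 for Ndufa9 (-0.02 to 0.26, adjusted p = 0.262), none of them called. With the adipocyte mean as a covariate no gene at all was called in HFD+CR minus HFD, and 4 members had an unadjusted p under 0.05, all of them lower.

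**Figure D4:**
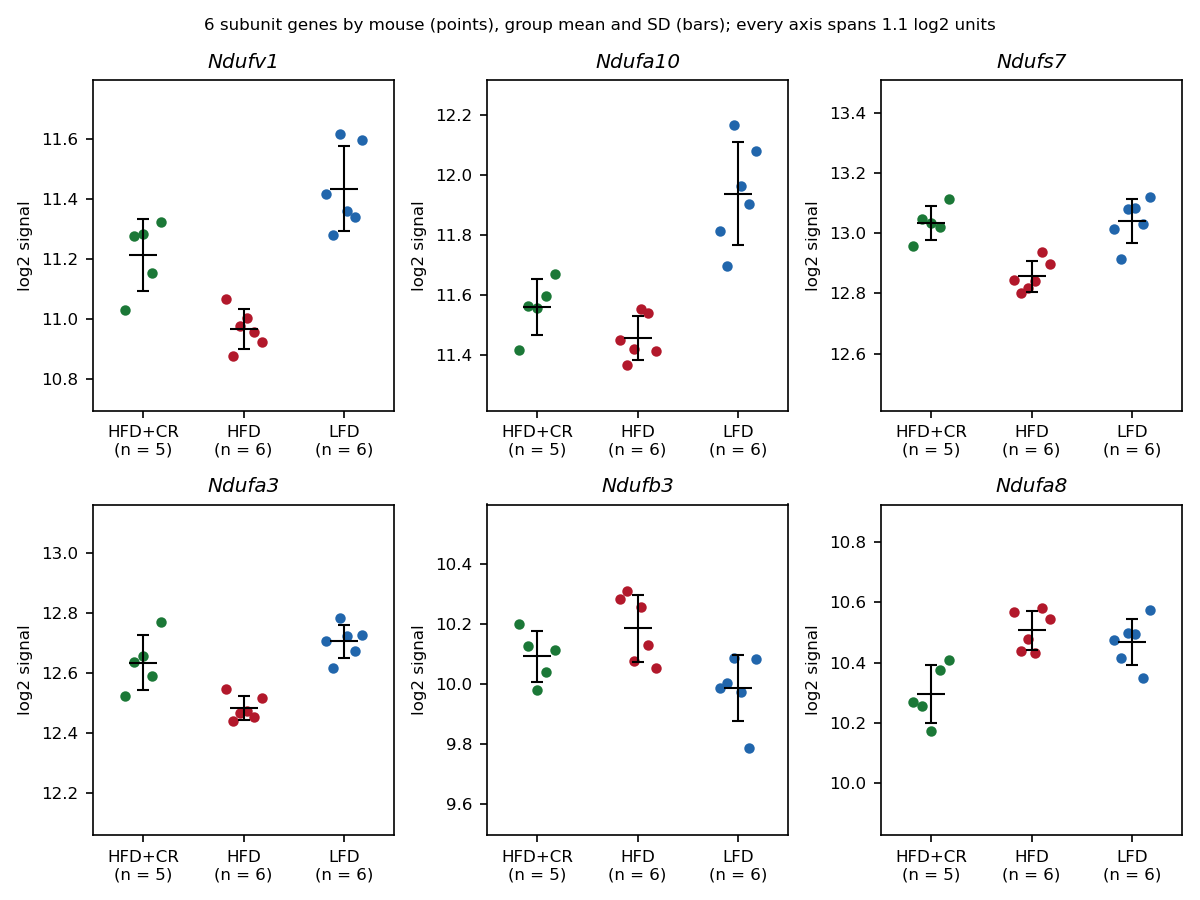
Log2 signal of 6 members in each mouse (points) with the group mean and SD (bars) for HFD+CR (n = 5), HFD (n = 6) and LFD (n = 6), on axes of equal span. Ndufv1, Ndufs7 and Ndufa3 have their lowest group mean in HFD mice, Ndufa10 lies below the LFD mice in every HFD+CR and HFD mouse, Ndufb3 has its highest group mean in HFD mice, and Ndufa8 its lowest in HFD+CR mice.

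Some complex I subunit genes were lower in HFD+CR than in LFD fat. This comparison and HFD minus LFD share the 6 LFD mice, so equal signs in them are no separate evidence. Of the 33 members, 7 were lower in HFD+CR than in LFD fat, against 3.28% of all genes, and none was higher by limma at the adjusted or the unadjusted threshold of 0.05, against 5.80% of all genes. The median difference was -0.16 over the members and -0.0004 over all genes, and 31 of 33 members lay below 0. In 3 members, Ndufa10, Ndufb10 and Ndufs3, every HFD+CR mouse lay below every LFD mouse, against 2.43% of all genes. The count of calls leaned on single mice: it was 1 without HFD+CR mouse 1, LFD mouse 3, LFD mouse 4 or LFD mouse 6, 3 without HFD+CR mouse 3, 4 without HFD+CR mouse 2 or 4, and 13 without LFD mouse 2. Without the 4 arrays high for muscle or gland markers it was 3. The median difference stayed between -0.17 and -0.12 over the omissions of single mice.

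Ndufa10 had the largest difference of HFD+CR minus LFD, -0.38 ± 0.07 (-23.0%, adjusted p = 0.00279), and it kept its call in 30 of 31 alternative settings. Of the core subunits, Ndufs1 was lower by -0.25 ± 0.07 (adjusted p = 0.0313), and Ndufv1 by -0.22 ± 0.07 (adjusted p = 0.0499), a call that ended in 23 of 31 alternative settings. The others called were Ndufa9 (-0.23 ± 0.07, adjusted p = 0.0349), Ndufb10 (-0.21 ± 0.06, adjusted p = 0.0371), Ndufb5 (-0.19 ± 0.05, adjusted p = 0.037) and Ndufa8 (-0.17 ± 0.05, adjusted p = 0.0479). Of the same 31 settings, the call ended in 21 for Ndufa8, 15 for Ndufb5, 13 each for Ndufs1 and Ndufb10, and 12 for Ndufa9. All 6 calls other than that of Ndufa10 ended without the 4 arrays or without LFD mice 3 and 6. Ndufb8 (-0.25 ± 0.08, adjusted p = 0.0538) and Ndufs8 (-0.24 ± 0.09, adjusted p = 0.126) had large differences without a call. Ndufs7 differed by -0.01 (95% confidence interval -0.10 to 0.09, adjusted p = 0.961) and Ndufv2 by -0.16 (-0.27 to -0.06, adjusted p = 0.0511).

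The adipocyte means of the HFD+CR and LFD mice, given above, overlapped, and with that mean as a covariate the median member difference was -0.11 and 1 member, Ndufa10 (-0.31 ± 0.07, adjusted p = 0.0156), was called lower. Thermogenic markers moved with this comparison too: 5 of 9 were called lower in HFD+CR than in LFD fat, and their mean relative to the median array ran from -0.58 to 0.01 in HFD+CR mice, -0.34 to 0.30 in HFD mice and -0.15 to 2.30 in LFD mice. Of the 9, Elovl3 and Dio2 had mean signals below the lowest array median. Without LFD mice 3 and 6 the median member difference was -0.12 and 1 member was called lower, and with the thermogenic mean as a covariate the median was -0.08 and none was called, with 4 lower at an unadjusted p under 0.05. In HFD minus LFD 4 of the 9 thermogenic markers were called lower and none higher. Of the 9, 8 lay below 0, and their median difference was -0.86. With the thermogenic mean as a covariate, 15 members were called lower in HFD minus LFD and the median over the members was -0.14.

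The 7 subunits encoded by mitochondrial DNA, which form the proton-pumping core of the membrane arm, all fell in HFD relative to LFD fat. Over all genes 11.3% did so. The largest difference was that of ND6, which was at 9.42, 8.19, 8.69, 8.83 and 8.22 in HFD+CR mice, 8.38 to 9.06 in HFD mice and 8.91 to 9.33 in LFD mice. The HFD minus LFD difference of ND6 was -0.54 ± 0.17 (adjusted p = 0.0228). The other 6 had group means of 13.7 to 14.3, near the highest value of 14.4 in the data, and differences of -0.25 to -0.10, the largest that of ND4L (-0.25 ± 0.04, adjusted p = 3.26e-05). Relative to HFD fat, 3 of the 7 (42.9%) rose in HFD+CR fat, against 7.69% of all genes. They were ND4L (0.13, adjusted p = 0.0253), ND2 (0.13, adjusted p = 0.021) and ND5 (0.10, adjusted p = 0.0433). Between HFD+CR and LFD only ND4L was called (-0.13, adjusted p = 0.044).

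The 17 measured assembly factors, which build the complex and do not stay in it, were called in both directions. In HFD minus LFD 4 fell (23.5%) and 3 rose (17.6%), against 11.3% and 16.5% of all genes. Foxred1 (-0.30, adjusted p = 0.000242), Ndufaf3 (-0.26, adjusted p = 0.000435), Ecsit (-0.23, adjusted p = 0.0113) and Ndufaf1 (-0.15, adjusted p = 0.0306) were lower, and Tmem126b (0.23, adjusted p = 0.00192), Ndufaf2 (0.23, adjusted p = 0.0151) and Acad9 (0.17, adjusted p = 0.0129) were higher. Ecsit, Ndufaf1, Tmem126b and Acad9 belong to the same assembly complex of the membrane arm, so its genes were called in both directions. Ndufaf3 rose in HFD+CR relative to HFD fat (0.19, adjusted p = 0.0118), and Tmem126b (-0.18, adjusted p = 0.0227), Dmac1 (-0.20, adjusted p = 0.00368) and Ndufaf4 (-0.19, adjusted p = 0.0483) fell. Lower in HFD+CR than in LFD fat were Ecsit (-0.24, adjusted p = 0.0294) and Ndufaf4 (-0.22, adjusted p = 0.0428). Ndufab1, the acyl carrier protein that is also a subunit of complex I, was lower in HFD than in LFD fat (-0.19 ± 0.06, adjusted p = 0.0138).

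Of 13 regulators of genes for mitochondrial proteins, 2 fell and 2 rose in HFD relative to LFD fat, 15.4% each way, near the 11.3% and 16.5% of all genes. Ppargc1a, the coactivator PGC-1 alpha, was at 8.12, 8.23, 8.25, 8.34 and 8.36 in HFD+CR mice, 7.49 to 8.10 in HFD mice and 8.09 and above (median 8.32) in LFD mice. The HFD mice were lowest, with an HFD minus LFD difference of -0.65 ± 0.13 (adjusted p = 0.00103) and an HFD+CR minus HFD difference of 0.44 ± 0.14 (adjusted p = 0.0327). Ppargc1b, its relative, was lower in HFD than in LFD fat (-0.52 ± 0.10, adjusted p = 0.000655) and lower in HFD+CR than in LFD fat (-0.38, adjusted p = 0.0287). LFD mice 3 and 6 were highest for Ppargc1b too, at 8.25 and 8.52. Pprc1 (0.21, adjusted p = 0.0447) and Yy1 (0.17, adjusted p = 0.0178) were higher in HFD than in LFD fat, and Nrf1, Gabpa, Esrra and Tfam were not called in any of the 3 comparisons.

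Complex I is 1 of several enzymes that pass electrons to ubiquinone. Of 10 genes for the other routes 6 (60%) fell in HFD relative to LFD fat, against 11.3% of all genes. Gpd2, the mitochondrial glycerol-3-phosphate dehydrogenase, was at 8.79, 8.60, 8.81, 8.70 and 8.79 in HFD+CR mice, 8.14 to 8.50 in HFD mice and 9.23 to 10.30 in LFD mice, with no overlap of either high-fat group with LFD. Its differences from LFD were -1.39 ± 0.14 in HFD (adjusted p = 9.44e-07) and -1.01 in HFD+CR (adjusted p = 0.000402), and LFD mice 3 and 6, with 10.25 and 10.30, were its highest. Prodh, proline dehydrogenase, fell in HFD relative to LFD fat (-0.97 ± 0.11, adjusted p = 2.41e-06) and rose in HFD+CR relative to HFD fat (0.64, adjusted p = 0.000649). Sqor, which feeds in electrons from sulphide, did so too (-0.55, adjusted p = 1.48e-07, and 0.44, adjusted p = 1.7e-05). Sdha, Sdhb and Sdhc of complex II fell by 0.40 to 0.43 in HFD fat.

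**Figure D5:**
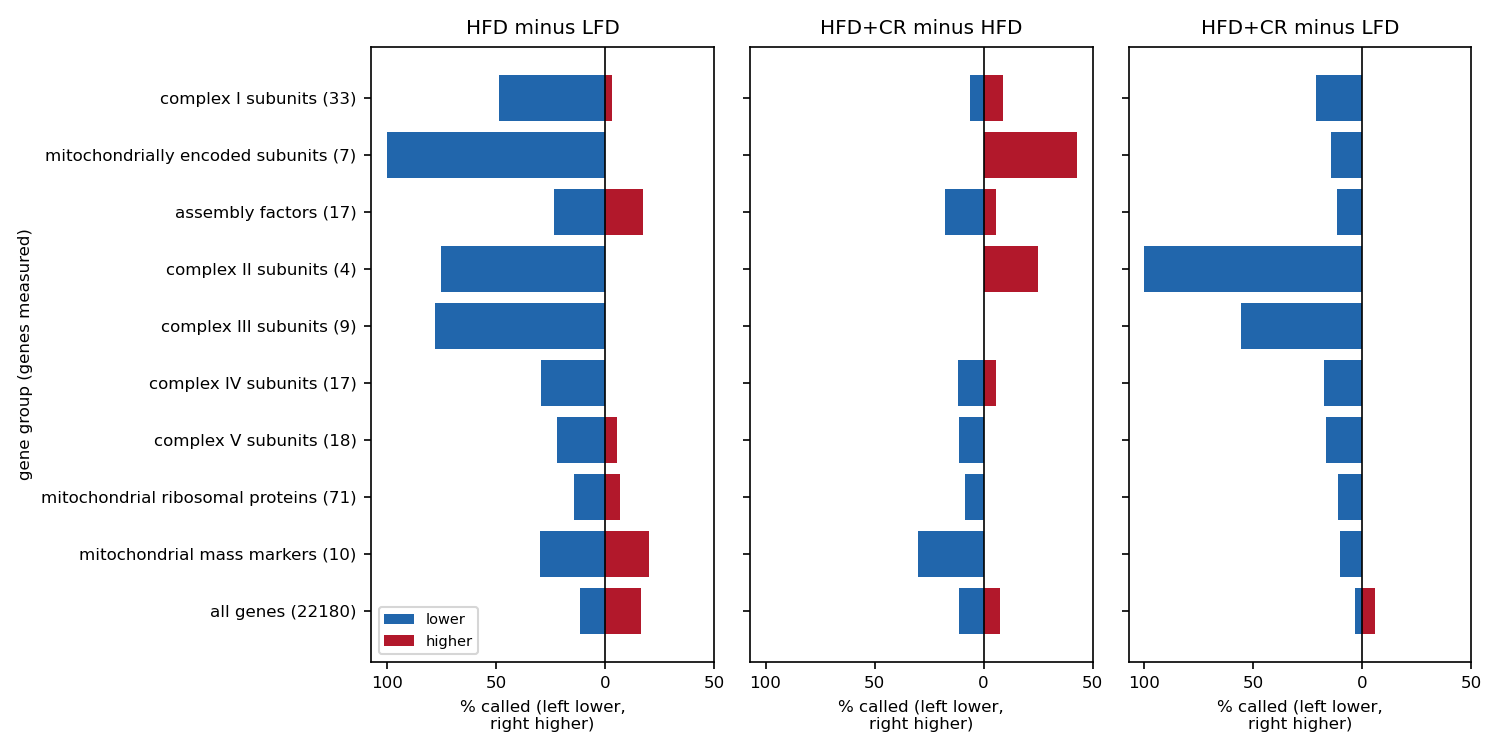
Percentage of the genes of each group called lower (blue, to the left) and higher (red, to the right) in HFD minus LFD, HFD+CR minus HFD and HFD+CR minus LFD, with the number of genes measured in parentheses. Complex I stands at 48.5%, 6.06% and 21.2% lower, against 11.3%, 11.3% and 3.28% of all genes.

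Complex I was set beside the 48 measured subunits of complexes II to V and 71 mitochondrial ribosomal proteins. In HFD minus LFD 48.5% of the complex I members, 39.6% of the subunits of complexes II to V and 14.1% of the ribosomal proteins were called lower, with medians of -0.18, -0.13 and -0.04. Taken singly, complexes II, III, IV and V had 75%, 77.8%, 29.4% and 22.2% called lower, with medians of -0.40, -0.28, -0.10 and -0.09. These shares rest on 4, 9, 17 and 18 measured genes. The complex IV genes include Cox7a1 and Cox8b, which are also among the thermogenic markers. In HFD+CR minus LFD the shares for complex I, complexes II to V and ribosomal proteins were 21.2%, 31.2% and 11.3%, with medians of -0.16, -0.16 and -0.09. For complexes II, III, IV and V singly they were 100%, 55.6%, 17.6% and 16.7%. Complexes II and III thus had a larger share lower than complex I in both comparisons. Between HFD+CR and HFD, 2 members of complex I (6.06%), 4 of complexes II to V (8.33%) and 6 ribosomal proteins (8.45%) were lower, against 11.3% of all genes. Higher were 3 (9.09%), 2 (4.17%) and 0, against 7.69% of all genes. Differences between these groups of genes were not tested. Of 10 measured markers of mitochondrial mass, 3 were lower in HFD than in LFD fat, among them Cs, citrate synthase (-0.27, adjusted p = 0.0024), and 2 were higher, Tomm20 (0.20, adjusted p = 0.0404) and Vdac2 (0.19, adjusted p = 0.00543). These were 30% and 20% of the markers, against 11.3% and 16.5% of all genes. Cs was lower in HFD+CR than in LFD fat as well (-0.30, adjusted p = 0.00521), and Vdac2 was lower in HFD+CR than in HFD fat (-0.24, adjusted p = 0.00175).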

How the data were processed

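Periprostatic fat RNA of 17 mice was measured on Affymetrix Mouse Gene 2.0 ST arrays, and only RNA with an integrity number above 7 was used per the labels' protocols. The deposited values are log2 signals per probe set; RMA, limma and R 3.5.0 are named in the submitters' processing notes, with no version for RMA and limma. Positions are printed for RefSeq's promoter windows (GRCm38.p6) and for no probe set, since the sources used here state no build for the array values. Of 33793 probe sets, 23521 had 1 gene symbol, 1814 several and 8458 none; the probe set with the highest mean was kept per gene, which left 22180 genes. Of the members, 3 had more than 1 probe set, and 6 probe sets that share a member's symbol with others were left out.

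The 3 group means of each gene were estimated together from the 17 arrays by limma (version 3.58.1, under R 4.3.3; contrasts.fit and eBayes with no trend, 14 residual degrees of freedom), with Benjamini-Hochberg adjustment over all genes and a call at an adjusted p under 0.05. The limma fit alone was tested on simulated data, with independent normal noise for each gene and shifts added in the HFD group only. Intervals are 95% confidence intervals, and their width is set by the few arrays per group. Probe sets were named from the platform annotation, promoter windows came from RefSeq, and figures were drawn with matplotlib 3.10.9. The members, gene lists, motifs and alternatives were chosen with earlier results of these data known. Values are given in full for the core subunits, the members outside complex I, the 4 with the largest difference in each comparison and those called against the majority; the others are given by counts and ranges, and Ndufa3 and the pathway genes named were picked for their calls. Alternatives were other scalings, filters, probe set rules, fits, thresholds, marker covariates, omitted arrays and a block of mouse numbers.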

Additional observations from a re-analysis of the deposited data

Results flagged for a closer look

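In 7 of 102 sets, each a member or the members' mean in a group, 1 mouse lay far from the others of its group by Dixon's test at the 95% level, which chance alone does in about 1 in 20 sets. HFD mouse 1 stood high for Ndufs8 (10.72, others 10.38 to 10.48), Ndufa4 (11.31, others 10.96 to 11.08) and the mean deviation over all members (0.06, others -0.12 to -0.06). HFD mouse 4 stood high for Ndufs3 (8.81, others 8.54 to 8.64). LFD mouse 5 was low for Ndufb3 (9.79, others 9.98 to 10.09), and LFD mouse 2 was low for Ndufa2 (9.66, others 9.85 to 9.92). HFD+CR mouse 1 was low for Ndufa5 (7.80, others 8.07 to 8.18).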

How the results depend on the processing

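In HFD minus LFD the number of members lower stayed between 15 and 21 in all alternatives but the adipocyte covariate, which gave 0. Leaving out single mice gave 15 to 19 lower, 0 to 2 higher and a median difference of -0.20 to -0.15. The number higher was 0 with quantile normalisation, median centring, the adipocyte covariate or adjusted p under 0.01. It was 2 without the 4 arrays high for muscle or gland markers or with the muscle covariate. With the adipocyte covariate the median turned to 0.0108, and Ndufs1 (0.14), Ndufv3 (0.0209), Ndufc1 (0.0585), Ndufa5 (0.0577) and Ndufb7 (0.037) changed sign without a call; HFD and LFD mice do not overlap in that covariate.

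In HFD+CR minus HFD leaving out single mice gave 1 to 2 lower, 1 to 4 higher and medians of 0.05 to 0.09. The number lower was 1 with quantile normalisation, centring or adjusted p under 0.01 and 0 with the adipocyte covariate. The number higher was 6 with array weights, 1 at adjusted p under 0.01 and 0 with the adipocyte covariate, where the median turned to -0.13.

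In HFD+CR minus LFD leaving out single mice gave 1 to 13 lower, 0 higher and medians of -0.17 to -0.12. The number lower was 11 among genes above the median level, 2 with only the arrays compared, 3 without the 4 arrays, 1 without LFD mice 3 and 6, 0 with the thermogenic covariate (median -0.0827), 1 with the adipocyte covariate and 1 at adjusted p under 0.01. The causes of these changes were not tested. Mouse numbers are shared by the groups, and nothing in the labels says that they pair mice. Deviations of same-numbered mice from their group means gave 16 correlations of -0.11 to 0.41, 5 of them over 0.1. The highest were 0.41 for HFD and LFD mouse 3 and 0.30 for HFD+CR and LFD mouse 2, arrays high for gland or muscle markers. With mouse number as a replicate block 4 members were lower in HFD+CR minus LFD and 15 in HFD minus LFD.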
